A study of Mus musculus with 6 samples.

Results

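This account follows 6 genes that serve as oncofetal or tumor markers in mouse liver, Afp, Gpc3, Golm1, Tff3, Ly6d and Scd2, and asks how uniform 6 liver tumors were in them. The genes were taken by symbol from the expression table of the tumors, where each of the 6 had 1 row among 30236 genes, and the rule itself uses no measured value, although the genes were proposed with earlier results of these data known. The tumors were hepatocellular carcinomas of C57BL/6 mice, 3 labelled WT and 3 labelled Top1mt-KO, the latter lacking the mitochondrial topoisomerase Top1mt. All mice, of both genotypes, were males that received diethylnitrosamine (DEN), a DNA alkylating carcinogen, on postnatal day 14, then carbon tetrachloride (CCl4), a liver toxin that drives repeated regeneration, from 8 weeks of age for 14 weeks with 2 injections per week, and tumors were taken at 22 weeks. Top1mt-KO mice were bred from heterozygotes and treated beside their littermates, and tumors of the same size were chosen for RNA. No library of tumor-free liver was analysed here, so the values compare tumors with each other and do not show how far any tumor differs from normal liver. The labels do not say that tumors of a genotype came from separate mice, so the p-values below measure the spread between these 6 samples.

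Oncofetal genes are active in the fetal liver, are shut off in the adult organ and are switched on again in many liver cancers. Afp, a plasma carrier protein related to albumin, and Gpc3, a proteoglycan anchored to the cell surface, are the classic members of this class and are used as markers of human hepatocellular carcinoma. Golm1 is a Golgi membrane protein whose cleaved form appears in serum in liver disease. Tff3, a secreted trefoil peptide of mucous epithelia, Ly6d, a small surface protein of the Ly6 family best known from B cell precursors and squamous epithelia, and Scd2, a fatty acid desaturase of brain and newborn liver, are genes that chemically induced mouse liver tumors often express.

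Values were the log2 expression values that the authors deposited, and 1 unit is a factor of 2 on that scale. The transform is not named, so whether a unit is a factor of 2 in counts is not known, above all for low values. Counts and sequencing depth are not in the table, so no counting error can be given. Across all genes the values ran from -2.24 to 22.0. The spread of a gene between tumors is given as the range, highest minus lowest, and as the residual SD, the SD around the genotype means. Over the 22677 genes tested the median range was 1.03 and the median residual SD 0.38.

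A pair of libraries calls for care. Top1mt itself measured 7.71, 5.99 and 8.01 in WT replicates 1 to 3 and 5.58, 6.41 and 6.32 in Top1mt-KO, so the library labelled WT replicate 2 lay below 2 of the 3 knockout libraries. In Top1mt-KO replicate 1 a single gene, Gm42418, a locus that overlaps a ribosomal RNA repeat, made up 17.7% of all values summed on the linear scale, against 0.0199% to 0.387% in the other 5 libraries. Hepatocyte markers were high throughout. The 8 hepatocyte markers measured, such as Alb, summed to 20.9 to 21.6 log2 units in WT and 21.2 to 21.7 in Top1mt-KO.

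Promoter sequences show how the oncofetal genes differ in their control regions. RefSeq promoters (GRCm38.p6) were given for 3 of the 6 genes, Afp, Gpc3 and Golm1, and the 150 bases before each start are printed 5′ to 3′ in the direction of transcription. They lie at chr5:90490564-90490713 (plus strand), chrX:52613975-52614124 (minus strand) and chr13:59675785-59675934 (minus strand). Capitals mark the forkhead core (TGTTTGC), the TATA box (TATAAA) and the GC box (GGGCGG), each searched on both strands, so that a GC box also appears as CCGCCC.
Afp: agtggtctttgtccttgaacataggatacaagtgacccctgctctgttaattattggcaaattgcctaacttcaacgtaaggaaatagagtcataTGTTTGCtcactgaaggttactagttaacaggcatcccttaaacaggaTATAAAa
Gpc3: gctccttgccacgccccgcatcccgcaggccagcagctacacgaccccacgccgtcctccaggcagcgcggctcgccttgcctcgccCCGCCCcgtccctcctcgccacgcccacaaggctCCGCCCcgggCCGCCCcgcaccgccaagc
Golm1: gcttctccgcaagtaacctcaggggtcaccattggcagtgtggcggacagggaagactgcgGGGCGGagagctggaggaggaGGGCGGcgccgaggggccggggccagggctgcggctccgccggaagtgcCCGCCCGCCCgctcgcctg

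The Afp promoter held a forkhead core starting at -55 from the RefSeq start and a TATA box at -7. The TATA box lay at -30 from the start that GENCODE M21 annotates 23 bases downstream. Among 32851 RefSeq promoters, 4.30% had the forkhead core in the 250 bases before the start and 12.4% the TATA box. Forkhead factors are among the transcription factors of hepatocytes. Gpc3 and Golm1 had no forkhead core in that window and held GC boxes instead, at -63, -29 and -19 in Gpc3 and at -89, -68, -19 and -15 in Golm1, where the last pair overlaps. A GC box was present in 32.7% of all promoters, and Golm1 had a TATA box at -185, outside the printed bases. The GC content of the 250 bases was 36.0% for Afp, 71.6% for Gpc3 and 65.6% for Golm1, beside a median of 52.4%. A match of letters is a description of the sequence and does not show that a factor binds there.

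Afp, the fetal counterpart of albumin at chr5:90490737-90508907 (GRCm38, plus strand, 3.37 kb of exons), was the least uniform of the 6 genes by range and residual SD. Its log2 values were 13.19, 10.84 and 10.62 in WT replicates 1 to 3 and 12.09, 8.06 and 9.13 in Top1mt-KO replicates 1 to 3. The highest tumor, WT replicate 1, exceeded the lowest, Top1mt-KO replicate 2, by 5.13 units or 35.0-fold, and the tumors of both genotypes overlapped because Top1mt-KO replicate 1 was the second highest of all. The residual SD of 1.79 was larger than that of 99.7% of the genes tested. Group means were 11.5 ± 1.43 for WT and 9.76 ± 2.09 for Top1mt-KO (SD, n = 3 each), a log2 fold change of -1.79 with a standard error of 1.05 (limma adjusted p = 0.999). An exact two-sided permutation test of the means gave p = 0.3, and its smallest possible p with 20 regroupings was 0.1. The genotype label held 27.2% of the variance of Afp, and the rest lay between tumors of the same genotype.

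Gpc3, a heparan sulfate proteoglycan that modulates Wnt and hedgehog signals at the cell surface, lies at chrX:52272426-52613950 on the minus strand with 2.69 kb of exons. It measured 12.11, 11.49 and 9.41 in WT and 12.17, 8.82 and 8.75 in Top1mt-KO. WT replicate 1, the library labelled WT replicate 2 and Top1mt-KO replicate 1 were high and the other 3 tumors low, so that high and low tumors occurred in both genotypes. The range was 3.42 units or 10.7-fold, and the residual SD of 1.71 exceeded that of 99.6% of the genes. Means were 11.004 ± 1.41 in WT and 9.91 ± 1.95 in Top1mt-KO (SD, n = 3 each), and the log2 fold change of -1.09 ± 0.998 (standard error) did not pass (limma adjusted p = 0.999). The exact permutation p was 0.6, and genotype held 13.3% of the variance.

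Golm1, the Golgi protein, at chr13:59634626-59675811 on the minus strand with 4.42 kb of exons, was far more even. It measured 10.06, 10.30 and 9.81 in WT and 10.71, 9.35 and 9.45 in Top1mt-KO, so that the 6 tumors stayed within 1.36 units or 2.56-fold. The 3 WT tumors lay between the highest and the lowest knockout tumor. The residual SD of 0.56 exceeded that of 70.2% of all genes, yet of 93.7% of the 5669 genes with the highest means, among which all 6 markers fell. The difference between the genotype means was -0.22 on the log2 scale (standard error 0.35, limma adjusted p = 0.999; exact permutation p = 0.7). The end of Golm1 overlaps Naa35, an acetyltransferase subunit gene on the opposite strand, over 1297 bases, and 27.95% of the 50-base windows of Golm1 occur in Naa35 too. Naa35 kept to 8.44 to 8.73 in the 6 tumors. The library kit marks strand, but the strand setting of the counting is not given in the sources used here, so a share of Naa35 reads in Golm1 cannot be told apart.

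Tff3, at chr17:31125306-31129646 on the minus strand with 0.49 kb of exons, followed another order. It measured 10.93, 9.33 and 10.74 in WT and 11.70, 9.61 and 11.39 in Top1mt-KO. Replicate 2 of each genotype was low and the other 4 tumors were high, with a range of 2.37 units or 5.17-fold. Tff3 was the only one of the 6 genes with a higher mean in Top1mt-KO, 10.9 ± 1.13 against 10.3 ± 0.87 (SD, n = 3 each), a log2 fold change of 0.57 with a standard error of 0.60 (limma adjusted p = 0.999; exact permutation p = 0.5). When the library labelled WT replicate 2 was left out, the value shrank to 0.066. The residual SD of 1.01 exceeded that of 95.1% of genes.

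Ly6d, at chr15:74762056-74763620 on the minus strand with 0.74 kb of exons, was nearly constant in WT and scattered in Top1mt-KO. It measured 10.45, 10.34 and 10.38 in WT, a range of 0.11 units, and 11.05, 10.10 and 7.51 in Top1mt-KO, a range of 3.54. Top1mt-KO replicate 3 set this spread, since the range over the other 5 tumors was 0.955. Means were 10.4 ± 0.056 and 9.55 ± 1.83 (SD, n = 3 each), and the log2 fold change of -0.84 (standard error 0.76) did not pass (limma adjusted p = 0.999; exact permutation p = 0.7). Without Top1mt-KO replicate 3 it was 0.18, with the opposite sign. Ly6d also marks the B cell lineage, and the 6 B cell and plasma cell markers summed to 8.28 to 9.06 in WT and to 7.56, 6.999 and 8.79 in Top1mt-KO replicates 1 to 3. Top1mt-KO replicate 3, lowest in Ly6d, was the highest knockout tumor in this sum, with Cd79a at 5.19 and Jchain at 7.73. The part of B cells in the Ly6d values was not tested.

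Scd2, which places the first double bond in saturated fatty acids, lies at chr19:44293674-44306864 on the plus strand with 5.46 kb of exons and was the most even of the 6 by the same measures. It measured 12.64, 12.83 and 13.21 in WT and 13.21, 12.70 and 11.91 in Top1mt-KO, a range of 1.30 units or 2.47-fold, with a residual SD of 0.51 above that of 64.6% of genes. Top1mt-KO replicate 1 equalled the highest WT tumor to the digits given, Top1mt-KO replicate 3 alone lay below the WT tumors, and without that library the range was 0.569. The log2 fold change of -0.29 (standard error 0.33) did not pass (limma adjusted p = 0.999; exact permutation p = 0.7). Of its 50-base windows 3.97% also occur in other genes, among them Scd1, Scd3 and Scd4. Scd1 is far more abundant per kilobase. By the study's methods only reads with a unique mapping were kept, and the part of Scd1 reads in the Scd2 value was not tested.

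**Figure D1:**
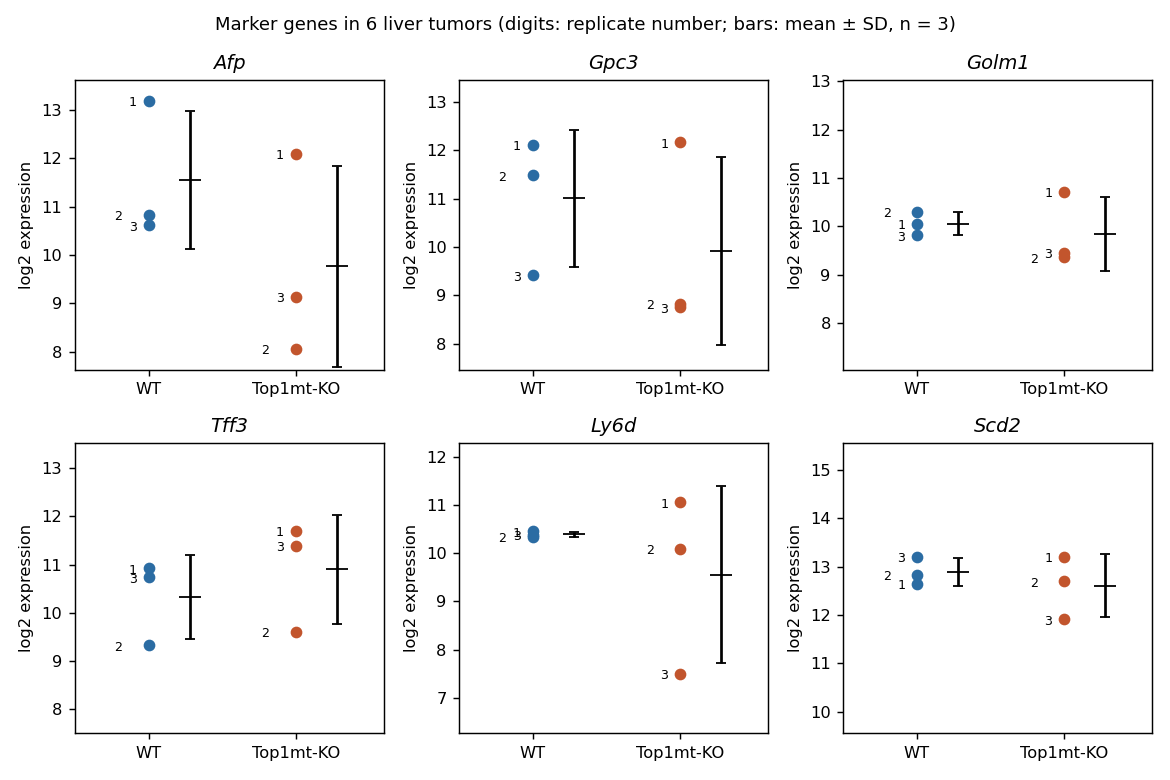
Each panel plots the deposited log2 expression of 1 marker gene in the 6 tumors, with WT in blue and Top1mt-KO in orange, the digit giving the replicate number and bars giving the mean ± SD of 3 tumors. All panels span the same number of log2 units, so that the wide scatter of Afp (range 5.13) and Gpc3 (3.42) can be set against the narrow one of Golm1 (1.36) and Scd2 (1.30).

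In the fit over all genes, 0 of the 6 markers were called between genotypes, beside 0% of the 22677 genes tested (limma, adjusted p under 0.05, smallest adjusted p of any gene 0.938). At an unadjusted limma p under 0.05 the markers again counted 0, beside 4.34% of genes. The WT and Top1mt-KO tumors overlapped in all 6 markers, whereas 8.28% of genes had no overlap between the genotypes. The mean was lower in Top1mt-KO for 5 of 6 markers, beside 52.3% of genes, and Tff3 was the exception. All 6 had a wider range in Top1mt-KO than in WT, as did 54.1% of genes.

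The tumors themselves differed as marker carriers. Top1mt-KO replicate 1 was the highest of the 6 tumors in 5 markers, all but Afp, while 18.8% of genes were highest there, and it lay above both other knockout tumors in all 6 markers, against 38.9% of genes. Top1mt-KO replicates 2 and 3 held the lowest place in 5 of the 6 markers, and the library labelled WT replicate 2 was lowest in Tff3. WT replicate 1 ranked first in Afp and second in Gpc3 and Ly6d, but in Scd2 only Top1mt-KO replicate 3 lay below it. Top1mt-KO replicate 1 is also the library with the large share of Gm42418, and the part of that share in its marker values was not tested.

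Leaving out Top1mt-KO replicate 1 moved the comparison. That library lay above both other knockout tumors in all 6 markers, beside 38.9% of genes. Its removal could therefore only lower the Top1mt-KO mean of each marker, and the counts below are no test of the genotype. The log2 fold changes became -2.95 for Afp (standard error 0.78), -2.22 for Gpc3 (0.72), -0.65 for Golm1 (0.17), -1.59 for Ly6d (0.66), -0.59 for Scd2 (0.28) and 0.17 for Tff3 (0.64). Of the 6 markers, 4 (Afp, Gpc3, Golm1 and Ly6d) then had no overlap between genotypes and lay lower in Top1mt-KO, beside 11.8% of genes that did so. The same 4 had an unadjusted limma p under 0.05, beside 3.16% of genes that were lower at that threshold. None of them passed after adjustment over all genes, with limma adjusted p = 0.598 for Afp and Golm1, 0.693 for Gpc3 and 0.837 for Ly6d, and 1 of 22677 genes, 0.00441%, passed in that fit. When the library labelled WT replicate 2 was left out instead, none of the 6 markers had an unadjusted p under 0.05, with log2 fold changes of -2.14 for Afp and -0.85 for Gpc3.

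**Figure D2:**
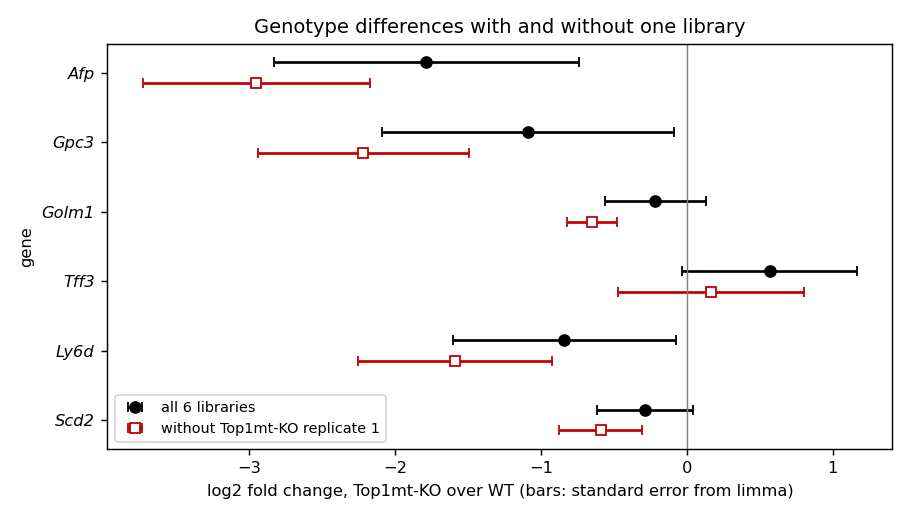
Points give the log2 fold change of Top1mt-KO over WT for each marker with its standard error from limma, over all 6 libraries (black circles) and without Top1mt-KO replicate 1 (red squares). Without that library Afp moved from -1.79 to -2.95 and Gpc3 from -1.09 to -2.22, and Tff3 stayed above 0.

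Most genes with high means varied less than these markers. Among the 5669 genes with the highest means the median residual SD was 0.20 and the median range 0.53, and within that set Afp and Gpc3 each exceeded 99.8% of genes, Ly6d 99.6%, Tff3 99.0%, Golm1 93.7% and Scd2 91.3%. All 6 markers therefore varied more than the median gene of their level, Afp, Gpc3, Ly6d and Tff3 by the widest margin. The spread was larger at the level of Scd2. In the bin of 1 log2 unit from 12, with 251 genes, the median residual SD was 0.28 and the 75th percentile 0.46, beside 0.51 for Scd2.

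**Figure D3:**
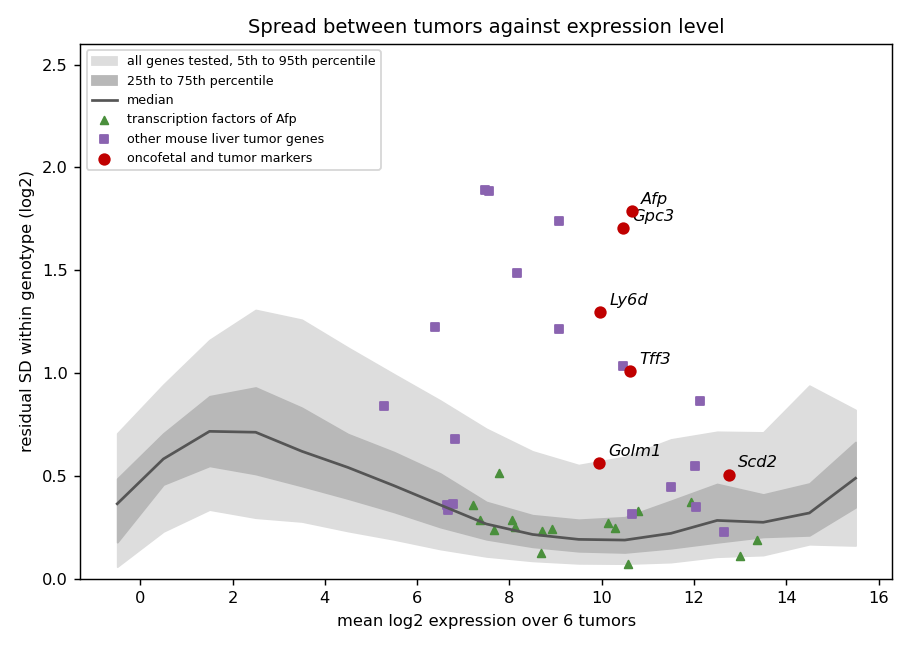
The residual SD within genotype is plotted against the mean log2 expression over 6 tumors, with grey bands for the percentiles of all genes tested in bins of 1 log2 unit, red circles for the 6 markers, purple squares for other mouse liver tumor genes and green triangles for transcription factors of Afp. Afp (1.79) and Gpc3 (1.71) stand far above the 95th percentile of genes of their level. The transcription factors lie far below both, at a median of 0.25, beside 0.20 for the 5669 genes with the highest means.

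Levels between genes were compared per kilobase of annotated exon, on the log2 scale. By the median of the 6 tumors the order was Tff3 (11.85), Ly6d (10.79), Scd2 (10.31), Gpc3 (9.02), Afp (8.97) and Golm1 (7.79), and the ranges of each pair of neighbours overlapped. Albumin, the adult relative of Afp, stood at 19.03 to 19.9. Alb exceeded Afp by 7.95 units in WT replicate 1, where Afp was highest, and by 13.10 in Top1mt-KO replicate 2, where it was lowest. Afm, the gene beside Afp in the albumin cluster, kept to 10.5 to 11.6 per kilobase, and the 3 relatives Alb, Afm and Gc had ranges of only 0.54 to 1.07. Scd1, the main desaturase of adult liver, exceeded Scd2 by 3.79 to 5.92 units per kilobase, so Scd2 was the minor form in every tumor. Gpc3 lay above Gpc6, another glypican, in all 6 tumors, by 0.42 to 4.43 units. Against Gpc4, its neighbour on the X chromosome, it ran from 0.56 units lower in Top1mt-KO replicate 3 (a difference of -0.56) to 2.65 higher in WT replicate 1.

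**Figure D4:**
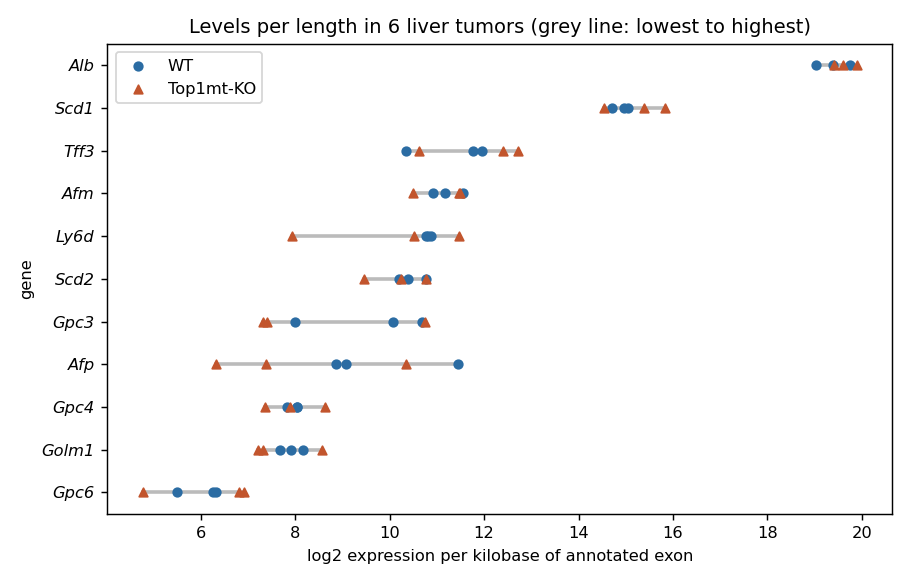
Points give log2 expression per kilobase of annotated exon in the 6 tumors for the markers and for relatives of Afp, Gpc3 and Scd2, with WT as blue circles and Top1mt-KO as orange triangles, and the grey line joins the lowest and highest tumor. Alb (19.03 to 19.9) forms a tight group far above Afp (6.31 to 11.4), and Scd1 lies above Scd2 in every tumor.

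None of the 15 pairs of markers was correlated across tumors past the adjusted threshold. The 4 pairs with an unadjusted p under 0.05 are given here, and their points share the library and its normalisation. Over the 6 libraries, Afp and Gpc3 had Pearson's r = 0.89 (exact permutation p = 0.0111, adjusted 0.0833 over 15 pairs) and Spearman's rho = 0.89 (exact permutation p = 0.0333, adjusted 0.167). Gpc3 and Golm1 had r = 0.90 (exact permutation p = 0.0167, adjusted 0.0833) and rho = 0.89 (p = 0.0333, adjusted 0.167). Gpc3 and Ly6d had r = 0.65 (exact permutation p = 0.0111, adjusted 0.0833) and rho = 0.94 (p = 0.0167, adjusted 0.167). These 3 values of r stayed positive without the 2 tumors farthest from the median of the first gene, at r = 0.89, 0.86 and 0.75. Within genotypes, after the genotype means were removed, r was 0.89 for Afp with Gpc3, 0.90 for Gpc3 with Golm1 and 0.59 for Gpc3 with Ly6d. Ly6d and Scd2 had r = 0.91 (exact permutation p = 0.0333, adjusted 0.125) and rho = 0.66 (p = 0.175, adjusted 0.375). Their r was 0.23 without the 2 farthest tumors, Top1mt-KO replicates 1 and 3. It was 0.89 without replicate 1 alone and 0.62 without replicate 3 alone. Tff3 had r between -0.19 and 0.40 in its 5 pairs, 2 of them negative.

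Genes whose values were most like those of a marker over the 6 libraries were ranked by Pearson's r, as a description. For Afp they were Tgfbr3, the TGF-beta co-receptor betaglycan (r = 0.991), Zfp429 (0.990) and Wdr54 (0.989). For Gpc3 they included the kinase Pak1 (0.993) and Gm24401 (0.991). For Golm1 they were Col4a3, a basement membrane collagen (0.996), Ocstamp (0.995) and the transporter Slc22a23 (0.994). Tff3 was matched by Hebp2 (0.997), Gm12706 (0.997) and Ddx39 (0.985), Ly6d by the peroxiredoxin Prdx5 (0.989), the disulfide isomerase Txndc5 (0.989) and Rbm44 (0.984), and Scd2 by Mir3070b (0.998), Apol7e (0.990) and Mcph1 (0.985). High values of r are common over 6 libraries, and from 141 genes for Tff3 to 370 for Golm1 had r of at least 0.9. Several of them varied little, such as Slc22a23 with a range of 0.489 units beside 1.36 for Golm1.

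Other genes of the fetal liver programme did not share 1 pattern with Afp. Of 18 listed oncofetal genes, 16 were tested, 0 were called and 8 lay on each side, with a median log2 fold change of -0.015, the same as all genes (-0.015). H19, the imprinted noncoding RNA of fetal liver, was nearly as uneven as Afp. It measured 10.44, 6.94 and 6.74 in WT and 8.48, 9.17 and 6.67 in Top1mt-KO, highest in the same WT tumor as Afp but high in Top1mt-KO replicate 2, where Afp was lowest. Dlk1, a marker of hepatoblasts, measured 1.53, 1.80 and -0.81 in WT and 0.47, -0.88 and -0.99 in Top1mt-KO, near the floor of the table, with high and low tumors as for Gpc3. Igf2bp3, an oncofetal RNA-binding protein, ran against Afp, with 5.03, 4.84 and 5.25 in WT and 4.70, 7.18 and 6.35 in Top1mt-KO.

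Other genes often raised in mouse liver tumors were also uneven between tumors. All 18 were tested, 0 were called, 13 were lower and 5 higher in Top1mt-KO, the median log2 fold change was -0.46 beside -0.015 for all genes, and the median residual SD was 0.76 beside 0.38. Tspan8, a tetraspanin of epithelial tumors, measured 10.64, 9.86 and 9.60 in WT and 10.61, 5.81 and 7.95 in Top1mt-KO. Akr1c18, an aldo-keto reductase that breaks down progesterone, measured 10.95, 11.35 and 10.95 in WT and 11.41, 8.55 and 9.58 in Top1mt-KO. In both, Top1mt-KO replicate 1 lay within the range of the WT tumors or just above it, and the other knockout tumors lay below all 3 WT tumors. Krt18, a keratin of all hepatocytes, was even, from 12.4 to 12.9. Top1mt-KO replicate 1 lay above both other knockout tumors in 9 of the 18 genes, beside 38.9% of all genes, and in Epcam, an epithelial adhesion protein, it was the lowest of all tumors at 3.88. Among genes named after their values were seen, Spink1, a secreted trypsin inhibitor, measured 10.08 in Top1mt-KO replicate 1 and 5.89 and 5.38 in the other knockout tumors, and Prom1, a progenitor cell marker, 10.44, 7.46 and 7.48 in the same order.

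**Figure D5:**
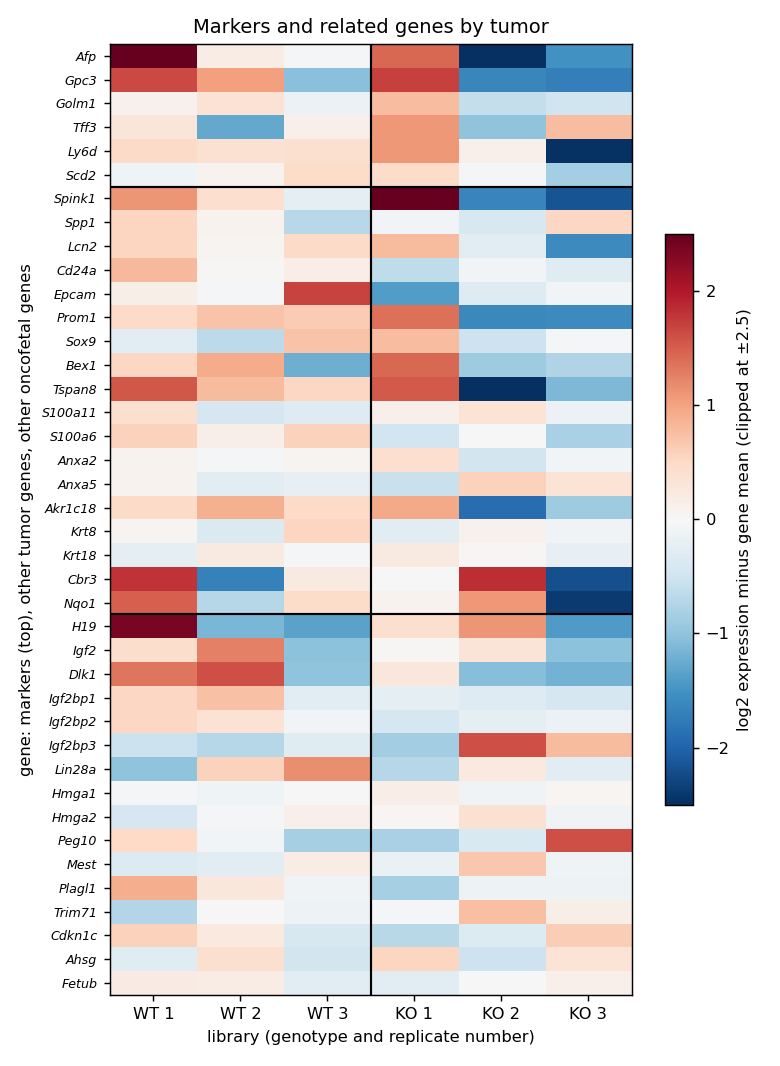
Colours give the log2 expression minus the mean of the gene over 6 tumors (red above, blue below, clipped at 2.5) for the 6 markers, 18 other tumor genes and the 16 tested oncofetal genes, with tumors in columns and KO standing for Top1mt-KO. Top1mt-KO replicate 1 is red for all 6 markers and for Spink1, Prom1, Tspan8 and Akr1c18, and blue for Epcam. Top1mt-KO replicates 2 and 3 are both blue for Afp, Gpc3, Golm1 and those 4 tumor genes.

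The transcription factors that control Afp were far more even than Afp itself. All 16 listed were tested, 0 were called, and their ranges ran from 0.30 to 1.33 with a median of 0.70. Their median residual SD of 0.25 lay below that of all genes (0.38) and above that of the 5669 genes with the highest means (0.20). Zhx2, a repressor of Afp after birth, kept to 8.51 to 8.80, and Zbtb20, the other postnatal repressor, to 12.8 to 13.1. Cebpb, a stress-induced C/EBP factor, had the lowest p of the list. It measured 9.37, 9.50 and 9.14 in WT and 8.72, 8.58 and 8.16 in Top1mt-KO, a log2 fold change of -0.84 with a standard error of 0.18 that did not pass (limma adjusted p = 0.938).

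Relatives and partners of the other markers were also without a call. Over 11 pathway lists with 140 tested genes, 0 passed, and 7.14% had an unadjusted limma p under 0.05, beside 4.34% of all genes. Of 5 other glypicans 4 were tested. Gpc1 was the most uneven of them in mean difference (log2 fold change 0.47), followed by Gpc2 (0.25), and Gpc4 was the least (-0.005). Of 17 genes of heparan sulfate, hedgehog and Wnt signals around Gpc3, 14 were lower and 3 higher in Top1mt-KO, and the median log2 fold change was -0.24. Sulf1, a sulfatase that trims heparan sulfate, measured 7.55, 6.99 and 5.14 in WT and 3.98, 5.56 and 4.96 in Top1mt-KO (log2 fold change -1.72), Hhip, a hedgehog inhibitor, had -1.01 and Fzd8 -0.019. The 13 Golgi genes, with Tgoln1 (0.36), Man2a1 (-0.31) and Golga2 (0.005), had a median residual SD of 0.20, below the 0.56 of Golm1.

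Tff3 was the 1 trefoil gene at a high level. Tff1 measured 0.19 to 1.49 and Tff2 -0.018 to 1.43, near the floor of the table, as did the goblet cell factor Spdef (-0.33 to 1.73) and Agr2 (-0.998 to -0.13). Of 11 trefoil and mucin genes 10 were tested, 7 higher and 3 lower in Top1mt-KO, none called. Of 20 Ly6 family genes 17 were tested, 11 lower and 6 higher, none called. Ly6c2 and Ly6g, markers of monocytes and neutrophils, each had a log2 fold change of -1.07, and Ly6g5b had -0.10. Among the 16 genes of fatty acid desaturation and lipogenesis, 14 were higher and 2 lower in Top1mt-KO with a median of 0.22, opposite in sign to Scd2. Insig2, which holds back cholesterol and fatty acid synthesis, measured 10.64, 10.70 and 10.84 in WT and 11.70, 11.73 and 11.98 in Top1mt-KO, without overlap, a log2 fold change of 1.08 with a standard error of 0.14 (limma adjusted p = 0.938). Elovl5, a fatty acid elongase, had 0.70 and Fads1 0.015. The 10 proliferation genes had a median of 0.28, none called, with Bub1 at 0.48, Aurkb at 0.44 and Ccnb1 at -0.095.

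The cell make-up of the tumors was read from 59 tested markers of 9 cell types, of which 0 were called. An unadjusted limma p under 0.05 was found for 11.9% of them, beside 4.34% of all genes. Of these, 1 was higher and 6 were lower in Top1mt-KO. In bulk tissue, fewer cells of a type and less RNA per cell cannot be told apart. Bile duct markers, 8 in all, summed to 11.7 to 12.7 in WT and 11.8 to 12.6 in Top1mt-KO, but Krt19 and Krt7, 2 defining duct keratins, were lower in Top1mt-KO by mean, Krt19 at 6.11, 4.75 and 6.93 in WT and 2.86, 4.38 and 2.502 in Top1mt-KO (limma adjusted p = 0.987). Stellate cell and fibroblast markers summed to 13.1 to 14.6 in WT and to 12.2, 14.3 and 13.4 in Top1mt-KO replicates 1 to 3, lowest in the tumor where 5 markers were highest. Endothelial markers were even (12.8 to 13.2), and macrophage markers ran from 12.1 to 13.3. Neutrophil markers summed to 8.42 to 9.89 in WT and 7.99 to 8.58 in Top1mt-KO. T and NK cell markers ran from 5.51 to 6.15 and adipocyte markers from 8.37 to 9.96, the latter with Adipoq (0.15 to 0.78) and Plin1 (-0.67 to -0.34) near the floor. The part of these cells in the marker values was not tested.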

How the data were processed

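Total RNA of 6 mouse liver tumors, 3 labelled WT and 3 Top1mt-KO, was sequenced by the authors from stranded libraries. The deposited values are log2 expression values per gene, normalised by the authors, whose transform is not named in the sources used here. Counts are not used here, so depth is unknown. The submitters' processing notes name bcl2fastq 2.17, Trimmomatic 0.36, STAR 2.5.1, Subread, DESeq2 and GRCm38, whereas the study's methods give another aligner and an older mouse build. The table held 6 sample columns, all mapped to the labels, and 5 symbols occur more than once.

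Genes whose mean over the 6 libraries lay above the lowest 25% were tested (22677 of 30236) with limma 3.58.1 in R 4.3.3 (trend, Benjamini-Hochberg, adjusted p under 0.05). All 6 markers passed this filter. The study's Wald test needs counts and was replaced by limma. Correlations used exact permutation over 720 pairings. Replicate numbers did not pair the libraries, with correlations of deviations of -0.12, -0.076 and 0.052. Markers and the 20 gene lists were chosen with earlier results of these data known. Named genes were the 6 markers, in each list the genes called or else the 2 with the largest and the 1 with the smallest absolute log2 fold change, the 3 genes most like each marker, Top1mt, and genes needed for cell types and shared reads. Genes beyond this rule are Zhx2, Zbtb20, Tff1, Scd1, Gpc6, the albumin relatives, Spink1, Prom1 and Epcam, named after their values were seen. A few genes that this rule names are not reported here. Gene positions and exon lengths are from GENCODE M21 and promoters from RefSeq. Alternatives were other filters, limma settings, centring, quantile normalization, a replicate block and leaving out each library.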

Additional observations from a re-analysis of the deposited data

How the results depend on the processing

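Over the alternatives run, none of the 6 markers passed after adjustment (limma adjusted p from 0.598 to 0.9999). Of the compared values, 384 were counted as unchanged, 14 as moved and 10 as reversed. A fold change was counted as unchanged when its sign and its side of the adjusted threshold stayed, whatever its size. With 1 library left out, the log2 fold change ran from -2.95 to -0.94 for Afp, -2.22 to -0.51 for Gpc3, -0.65 to 0.026 for Golm1, 0.066 to 1.21 for Tff3, -1.59 to 0.18 for Ly6d and -0.59 to 0.059 for Scd2. The sign turned for Golm1 without Top1mt-KO replicate 2 and for Ly6d and Scd2 without Top1mt-KO replicate 3. Genes called numbered 4 with no filter on low values and 0 to 1 with 1 library left out, and genes at an unadjusted p under 0.05 numbered 590 with a filter at the median and 859 to 1354 with 1 library left out. Markers at an unadjusted p under 0.05 numbered 0 to 4 with 1 library left out, as did markers without overlap (4 without Top1mt-KO replicate 1 and 1 without replicate 2 in both counts). The 4 without overlap were lower in Top1mt-KO. The 1 without overlap when replicate 2 was left out was Tff3, which was higher, with a log2 fold change of 1.21. Over the fits with 1 library left out, the percentile of the residual SD ran from 28.7 to 78.7 for Golm1, 52.8 to 99.1 for Ly6d and 42.9 to 73.4 for Scd2. The range ran from 0.955 to 3.54 for Ly6d and 0.569 to 1.30 for Scd2. Of the correlations of Tff3, that with Afp stayed positive (0.074 to 0.66) and the other 4 reversed, running from -0.18 to 0.51 with Gpc3, -0.27 to 0.66 with Golm1, -0.57 to 0.83 with Ly6d and -0.46 to 0.56 with Scd2 (0.034 after genotype means were removed). The causes were not tested. A fit that leaves 2 tumors in a genotype has few degrees of freedom, and log2 values without counts give no depth.

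With the replicate number as a block, 2 markers had an unadjusted p under 0.05 and none passed after adjustment, 912 genes had an unadjusted p under 0.05, and the percentile of the residual SD was 24.8 for Tff3, 76.9 for Afp, 92.9 for Gpc3, 73.8 for Golm1, 97.2 for Ly6d and 80.0 for Scd2, so that Afp no longer ranked above the others. The numbers are shared by label alone, so this block is not a pairing of the design.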
